A study of Homo sapiens with 12 samples.

Results

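Ribosome biogenesis factors are the proteins that transcribe, modify, cut and fold ribosomal RNA (rRNA) in the nucleolus and load ribosomal proteins onto it. The 46 genes described here were chosen by symbol from the 57353 rows of a gene count table, and cover RNA polymerase I (Pol I) transcription, the cores of the box C/D and H/ACA small nucleolar ribonucleoproteins, abundant nucleolar proteins, the small-subunit processome and assembly of the 60S subunit. All 46 had a row in the table, and all 46 were among the 14955 genes with enough counts to be tested. The RNA came from HepG2, an established human liver cancer cell line labelled as wild type, in 4 groups of 3 libraries. Vehicle cells received dimethyl sulfoxide (DMSO) and sorafenib cells 10 µM sorafenib, a multikinase inhibitor, in each case for 12 h, and all cells received cycloheximide before lysis to hold ribosomes on mRNA. Lysate of each of 3 cultures per treatment was spun through a sucrose gradient, and each culture gave 1 library from a light pool (low-molecular complexes, free 40S and 60S subunits and single 80S ribosomes) and 1 from a polysome pool. The series is described as ribosome profiling, whereas the protocol describes libraries made from RNA of the pooled fractions. Total RNA before fractionation was not analysed here, so loading onto polysomes and a change in the level of an mRNA cannot be told apart from the polysome pool alone. In these bulk extracts, fewer cells with an mRNA and less of it per cell cannot be told apart either.

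Pol I copies the rRNA genes with the help of the initiation factor RRN3 and the architectural factor UBTF. The nascent transcript is bound by the small-subunit processome, by box C/D particles that guide 2′-O-methylation, and by H/ACA particles that guide pseudouridylation, after which pre-40S and pre-60S particles mature separately. Growth signalling and the transcription factor MYC, which binds the E-box letters CACGTG, are known to raise many of these genes, and some mRNAs of the translation machinery start with a 5′ terminal oligopyrimidine (TOP) tract that couples their translation to mTORC1.

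The sequence around the transcription starts of these genes is shown first, and its part in the polysome changes below was not tested. The set of RefSeq (GRCh38.p14) promoter sequences used here covered 39 of the 46 genes. Each promoter had 300 bases, 250 before and 50 after the annotated start. NOP58, NOLC1, RRP1B, RRP12, RRS1, BOP1 and DDX18 had no sequence in this set. The palindrome CACGTG, which reads the same on both strands, stood in 15 of these 39 promoters (38.5%), in 8.88% of 15843 promoters of protein-coding genes and in 7.43% of all 27305 promoters. It was present in 13 of the 31 genes with a promoter that rose on polysomes after sorafenib and in 2 of the 5 that fell. A match is a description of the letters and not of binding. The windows below run from 35 bases before the annotated start to the first 25 bases after it, with CACGTG in capitals; the first 6 genes rose on polysomes and the last 2, NOP10 and MRTO4, fell, so the letters occur in both sets.
NAT10 (chr11:34105594-34105653, plus strand): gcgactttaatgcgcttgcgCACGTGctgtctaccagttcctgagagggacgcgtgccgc
RRP9 (chr3:51941880-51941939, minus strand): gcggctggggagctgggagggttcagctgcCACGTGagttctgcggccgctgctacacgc
UTP20 (chr12:101280070-101280129, plus strand): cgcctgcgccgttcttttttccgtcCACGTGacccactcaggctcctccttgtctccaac
WDR43 (chr2:28894632-28894691, plus strand): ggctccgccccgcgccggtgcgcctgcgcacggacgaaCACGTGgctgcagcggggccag
GNL2 (chr1:37595913-37595972, minus strand): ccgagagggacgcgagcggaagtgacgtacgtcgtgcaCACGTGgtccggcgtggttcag
PES1 (chr22:30591886-30591945, minus strand): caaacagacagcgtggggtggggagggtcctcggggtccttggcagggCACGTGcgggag
NOP10 (chr15:34343112-34343171, minus strand): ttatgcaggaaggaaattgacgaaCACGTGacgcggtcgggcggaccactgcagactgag
MRTO4 (chr1:19251770-19251829, plus strand): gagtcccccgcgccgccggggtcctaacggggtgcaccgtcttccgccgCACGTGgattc

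A TOP-like start, here a C at the annotated first base followed by at least 4 pyrimidines, was found in 3 of the 39 genes (7.69%) and in 4.6% of protein-coding promoters. The 3 genes are FBL, NPM1 and DDX21, in that order below, and their windows are shown with the pyrimidine run in capitals. A match rests on the annotated first base and describes the letters, not how the mRNA is translated. Their polysome log2 fold changes were 0.72, 0.7 and 1.97, and differences among them were not tested.
FBL (chr19:39846355-39846414, minus strand): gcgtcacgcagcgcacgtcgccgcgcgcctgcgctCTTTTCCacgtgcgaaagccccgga
NPM1 (chr5:171387814-171387873, plus strand): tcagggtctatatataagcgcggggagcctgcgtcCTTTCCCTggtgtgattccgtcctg
DDX21 (chr10:68956135-68956194, plus strand): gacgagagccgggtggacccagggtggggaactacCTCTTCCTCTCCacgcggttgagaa

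Library totals were 2060384 and 511065 counts in sorafenib light libraries 1 and 2 and lay between 4769383 and 13336689 in the other libraries. In that shallowest library the median count of the 46 genes was 21 and the lowest was 1, so the sorafenib light fraction was measured least well. Over all tested genes its replicates correlated at 0.8 to 0.93 (log2 scale), against 0.95 to 0.99 within the other groups. Over the 46 genes alone they correlated at 0.9 to 0.97. Sorafenib light libraries 1 and 2 had the lowest totals but not the fewest rows with a count. Such rows numbered 25497 and 25638 there, against 22300 to 25981 in the other libraries. These libraries thus differed from the others in more than depth, and the cause was not tested. All 8 hepatocyte markers checked were above the count filter, and their sum took 0.464% to 1.49% of counts with vehicle and 2.72% to 3.69% with sorafenib. The markers did not move as 1 set. By log2 fold change on polysomes, AFP (2.79), TF (2.78), ALB (2.54), SERPINA1 (1.82) and APOB (1.21) rose with sorafenib. TTR fell (-0.85, edgeR adjusted p = 0.0249), and APOA1 (0.48) and HNF4A (0) did not pass. Of 10 markers of other cell types, 5 were below the filter, PECAM1, PDGFRB and KRT7 had at most 13 counts in any library, and only CD68 and KRT19 of these 10 exceeded that. On polysomes CD68 rose by 1.06 on the log2 scale (edgeR adjusted p = 0.000652) and KRT19 by 1.02 (edgeR adjusted p = 0.0393) with sorafenib, and CD68 rose by 1.14 in the light pool; their part in the results below was not tested. The 46 genes together took 0.544% ± 0.0235 of polysome counts with vehicle and 0.989% ± 0.0448 with sorafenib, and 0.554% ± 0.0923 and 0.508% ± 0.1 of counts in the light pool (SD over 3 libraries). Their summed share was thus higher in every sorafenib polysome library than in any vehicle polysome library, while the light-fraction shares overlapped.

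The first comparison asked how sorafenib changed the polysome pool. The 4 listed Pol I genes, the listed small-subunit processome genes and most of the listed 60S assembly genes rose. In contrast, 3 of the 4 H/ACA core genes and 2 of the 16 genes of 60S assembly fell. Of the 46 genes, 37 rose, 5 fell and 4 did not pass the edgeR quasi-likelihood test, at a Benjamini-Hochberg adjusted p under 0.05 over all genes. Of all tested genes 26.3% rose and 20.5% fell. By at least 2-fold 31 of the 46 rose and 3 fell, against 19.5% and 13.2% of all genes. The median log2 fold change was 1.3 for the 46 genes and -0.02 for all genes. In 38 of the 46 genes every sorafenib library was above every vehicle library (31.2% of all genes), and in 4 every one was below (27.1%). Levels below are TMM-scaled CPM (library-size-scaled counts), which are not corrected for gene length and so are compared between libraries and not between genes. They are relative to the other counts of the same library. A rise is thus a larger share of the pool and need not be a larger amount of RNA. Changes are log2 fold changes from the edgeR fit ± SE, 3 libraries per group. The SE was derived as the absolute log2 fold change divided by the square root of the edgeR F statistic.

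**Figure D1:**
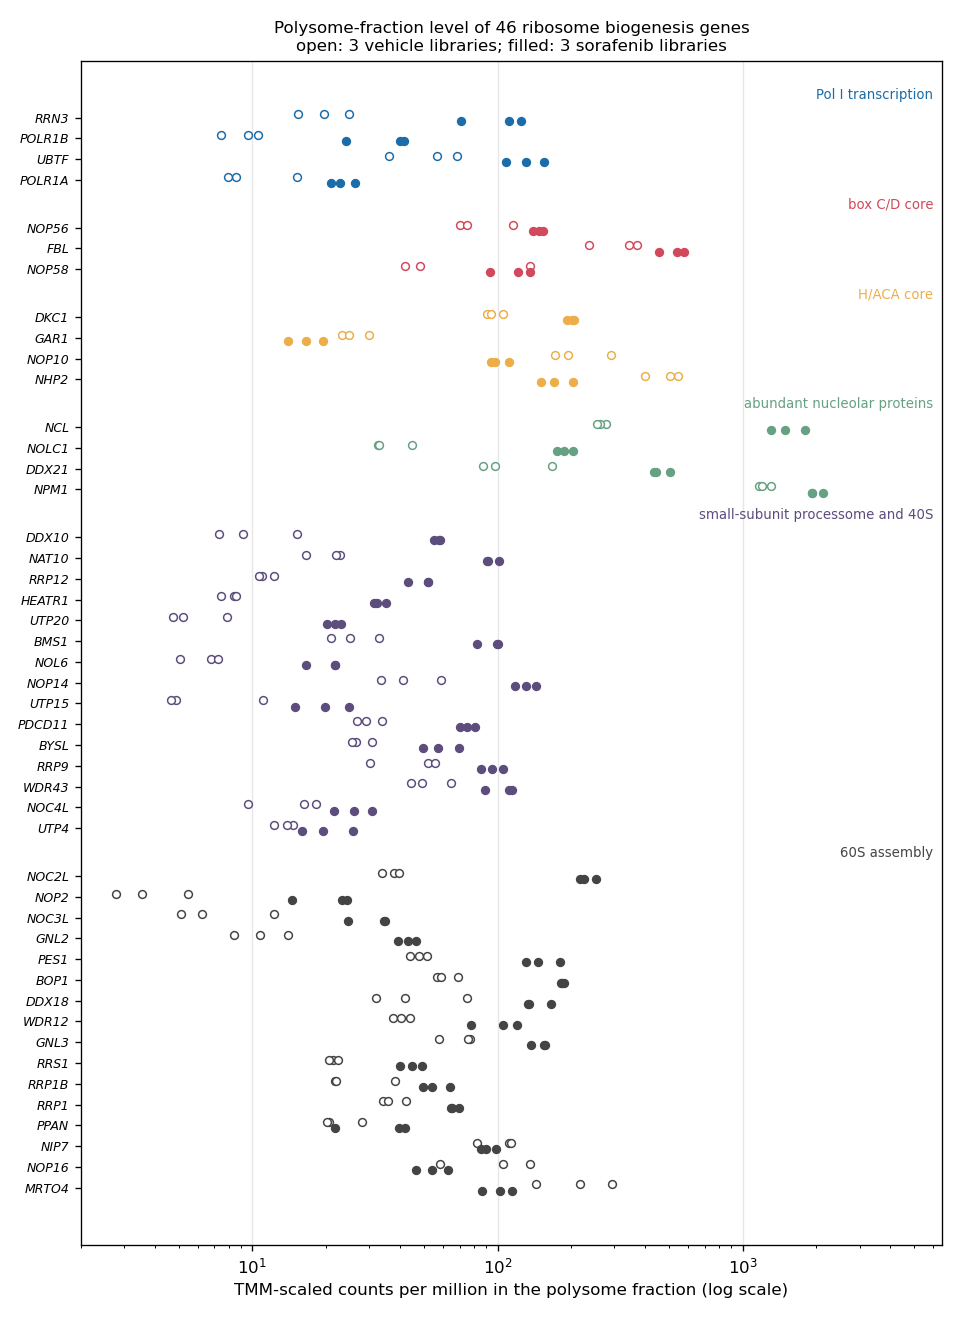
Level of each of the 46 genes in the polysome fraction, as TMM-scaled CPM on a log axis, with 1 point per library (open, 3 vehicle; filled, 3 sorafenib) and genes grouped by role and ordered by fold change. Filled points lie to the right of all open points in 38 genes; in NHP2, NOP10, GAR1 and MRTO4 they lie to the left.

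All 4 Pol I genes rose. RRN3, which recruits Pol I to the rRNA promoter, stood at 24.9, 15.4 and 19.6 CPM with vehicle and at 111, 71 and 125 CPM with sorafenib, a rise of 2.35 ± 0.26 (edgeR adjusted p = 5.45e-07). Reads of RRN3 may be shared with its pseudogenes, of which RRN3P3 held counts equal to 18.3% of those of RRN3. RRN3P3 had 282, 76 and 146 counts in vehicle and 68, 88 and 79 in sorafenib polysome libraries. RRN3 also overlaps the protein-coding gene PDXDC1, whose row held counts equal to 130% of those of RRN3 and had 575, 240 and 628 counts in vehicle and 1270, 1679 and 1467 in sorafenib polysome libraries. How reads of both genes were assigned was not tested. POLR1B, the second largest Pol I subunit, went from 10.5, 7.43 and 9.62 CPM to 41.6, 24.2 and 40.2 CPM, a rise of 1.93 ± 0.26. UBTF, which opens rRNA gene chromatin, was at 36.1, 56.4 and 68.2 CPM with vehicle and at 155, 108 and 131 CPM with sorafenib, a rise of 1.29 ± 0.28. POLR1A, the largest subunit, rose least of the 4, by 1.17 ± 0.3, from 8.61, 15.2 and 7.99 CPM to 21, 22.8 and 26.2 CPM, and did not pass after every library was thinned to the smallest total (0.51). In each of the 4 genes the groups did not overlap.

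The abundant nucleolar proteins gave some of the largest rises. Nucleolin (NCL), a histone chaperone and rRNA-binding protein, stood at 276, 262 and 255 CPM with vehicle and at 1790, 1490 and 1310 CPM with sorafenib, a rise of 2.53 ± 0.3 (edgeR adjusted p = 1.3e-06). NOLC1, a chaperone of small nucleolar particles that shuttles between nucleolus and Cajal bodies, went from 44.7, 32.4 and 32.8 CPM to 187, 204 and 175 CPM, a rise of 2.36 ± 0.26. The RNA helicase DDX21, with a TOP-like start, rose by 1.97 ± 0.29, from 167, 97.5 and 87.3 CPM to 442, 506 and 434 CPM. Nucleophosmin (NPM1), also with a TOP-like start, was at 1170, 1200 and 1310 CPM with vehicle and at 2130, 1920 and 1910 CPM with sorafenib. Its groups did not overlap, yet its value of 0.7 ± 0.35 did not pass in the fit of all 12 libraries (edgeR adjusted p = 0.107). Sorafenib light library 2 decided this, since without that library, which is no part of the comparison but shares its estimate of spread, NPM1 passed at 0.71 (adjusted p = 0.00658). Reads of NPM1 are uncertain as well, because its 46 listed pseudogenes, mainly NPM1P27, held counts equal to 7.57% of those of NPM1.

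All 15 genes of the small-subunit processome and 40S assembly rose, with a median of 1.57 and a range of 0.58 to 2.43. NAT10, which acetylates cytidines of 18S rRNA, went from 22.7, 22 and 16.6 CPM to 101, 90.3 and 91.5 CPM, a rise of 2.21 ± 0.22 (edgeR adjusted p = 1.93e-07). The helicase DDX10 rose by 2.43 ± 0.26, from 15.2, 9.12 and 7.29 CPM to 57.7, 55.2 and 58.3 CPM. RRP12, needed for export of ribosomal subunits, was at 11, 12.3 and 10.6 CPM with vehicle and at 52, 43.2 and 52 CPM with sorafenib, a rise of 2.13 ± 0.24. HEATR1, a processome protein also needed for Pol I transcription, went from 7.43, 8.45 and 8.61 CPM to 35.2, 31.4 and 32.1 CPM, a rise of 2.01 ± 0.25. In these 4 genes every sorafenib library was above every vehicle library. The other processome scaffold and GTPase genes had intermediate values: UTP20 and BMS1 both rose by 1.84, NOL6 by 1.63, NOP14 by 1.57, UTP15 by 1.49 and PDCD11 by 1.34. BYSL, which helps the pre-40S particle leave the nucleolus, rose by 1.09, the U3 particle protein RRP9 by 1.06 and WDR43 by 0.99. After thinning to the smallest total UTP15 (0.84), WDR43 (0.55) and BYSL (0.86) did not pass. NOC4L (0.85 ± 0.24) and UTP4 (0.58 ± 0.23) rose least. The call of NOC4L was lost without vehicle polysome library 1 (0.52, adjusted p = 0.0959) and without sorafenib polysome library 1 (0.62), and UTP4 passed in 2 of the 12 fits that left out 1 library, with values of 0.27 to 0.62.

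Among the 16 genes of 60S assembly, 12 rose, 2 fell and 2 did not pass. NOC2L, a nucleolar complex protein that also inhibits histone acetylation, showed the largest rise of the 46 genes, 2.64 ± 0.26 (edgeR adjusted p = 1.38e-07), from 33.8, 38 and 39.7 CPM to 225, 252 and 216 CPM. NOP2, an rRNA cytosine methyltransferase, rose by 2.37 ± 0.3 from 5.44, 3.55 and 2.79 CPM to 23.3, 14.5 and 24.3 CPM. The nucleolar GTPase gene GNL2 went from 10.7, 8.45 and 14 CPM to 46.5, 39.3 and 43 CPM, a rise of 1.94 ± 0.26. BOP1, PES1 and WDR12 form 1 complex (PeBoW) that matures the 5.8S and 28S rRNAs. BOP1 rose by 1.58 ± 0.22, from 56.7, 69.1 and 58.6 CPM to 183, 187 and 181 CPM, PES1 by 1.67 and WDR12 by 1.31, so all 3 subunit genes moved in the same direction. NOC3L rose by 1.97, the helicase DDX18 by 1.54, nucleostemin (GNL3) by 1.09, RRS1 by 1.06, RRP1B by 1.02 and RRP1 by 0.83. The call of RRP1B was lost without vehicle polysome library 2 (0.77, adjusted p = 0.055). PPAN had a value of 0.59 ± 0.26 and did not pass (edgeR adjusted p = 0.0685), although it did without sorafenib polysome library 2 (0.74, adjusted p = 0.0315). PPAN overlaps the read-through gene PPAN-P2RY11, whose row held counts equal to 93.8% of those of PPAN, so reads of PPAN are uncertain.

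The genes that fell were small-particle and 60S genes. NHP2, an H/ACA core protein, stood at 400, 544 and 504 CPM with vehicle and at 170, 203 and 151 CPM with sorafenib, a fall of 1.47 on the log2 scale (-1.47 ± 0.25, edgeR adjusted p = 7.75e-05). NOP10, the smallest H/ACA core protein, was at 290, 171 and 193 CPM and then at 94.1, 111 and 97.8 CPM (-1.11 ± 0.31). GAR1, the third H/ACA protein that fell, went from 23.3, 29.9 and 24.7 CPM to 14, 16.6 and 19.4 CPM (-0.63 ± 0.25). In all 3 genes every sorafenib library was below every vehicle library. DKC1, the pseudouridine synthase of the same particle, moved the other way, from 105, 90.9 and 93.9 CPM to 192, 201 and 205 CPM, a rise of 1.05 ± 0.21. Of the 60S genes, MRTO4, which acts on the pre-60S stalk, fell from 143, 293 and 217 CPM to 86.3, 115 and 102 CPM (-1.1 ± 0.25). NOP16 fell from 58.5, 105 and 136 CPM to 63, 46.4 and 54.3 CPM (-0.87 ± 0.27), with 1 overlapping pair of libraries. NIP7, which binds pre-60S particles, was at 82.4, 111 and 113 CPM with vehicle and at 98.8, 89.7 and 86 CPM with sorafenib, and its value of -0.15 ± 0.22 did not pass (edgeR adjusted p = 0.592), with a sign that turned to 0.02 without the count filter. The call of GAR1 was lost in 7 of the 12 fits that left out 1 library, namely vehicle light library 1 or 2, sorafenib light library 1 or 3, vehicle polysome library 2 and sorafenib polysome library 1 or 2 (values -0.73 to -0.59), and that of NOP16 without vehicle polysome library 3 (-0.68, adjusted p = 0.0513).

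The box C/D core genes changed least. Fibrillarin (FBL), the rRNA methyltransferase, went from 236, 370 and 344 CPM to 538, 575 and 455 CPM, a rise of 0.72 ± 0.28 (edgeR adjusted p = 0.0353). NOP56 went from 116, 70.5 and 75.1 CPM to 147, 140 and 154 CPM, a rise of 0.75 ± 0.28. In both the groups did not overlap. NOP58 was at 136, 48.3 and 41.8 CPM with vehicle and at 93.5, 136 and 121 CPM with sorafenib (0.63 ± 0.37, edgeR adjusted p = 0.178). Vehicle polysome library 1 stood apart from the other two of its group in NOP58, and without it the value was 1.29 (adjusted p = 0.00213). The calls of FBL and NOP56 were weak: FBL did not pass when any of the 6 polysome libraries was left out (0.46 to 0.74), and NOP56 did not pass without vehicle polysome library 2 or 3 or any sorafenib polysome library (0.5 to 0.68). With RLE size factors their values were 0.55 and 0.58, and neither passed.

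The polysome counts varied with the settings. Over the fits that left out 1 library, 33 to 38 of the 46 genes rose and 4 or 5 fell, and 35 of the 42 calls passed in each of them. Over all settings tried, 29 of the 42 calls were kept in each setting that tested the gene; the 13 others were POLR1A, NOP56, FBL, GAR1, NOC4L, UTP4, UTP15, WDR43, BYSL, NOP16, RRP1, RRP1B and RRS1. After thinning every library to the smallest total 26 rose and 4 fell, of 45 tested, and without the low-count filter 34 rose and 3 fell. Without both shallow sorafenib light libraries 38 rose and 5 fell. With library sizes taken over the filtered genes the median of all genes was -0.26 and that of the 46 genes 1.07, and 34 rose and 5 fell; the split of all calls moved there from 56.2% to 42.2% rises, and with RLE factors to 46%.

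A second list of 122 other ribosome biogenesis genes was set beside the 46. Of these, 63 rose on polysomes, 12 fell and 47 did not pass, with a median of 0.68. Of all tested genes 26.3% rose and 20.5% fell. Of 41 further small-subunit genes 25 rose and 6 fell, and of 48 further 60S genes 27 rose and 2 fell. The exosome helicase MTREX rose by 2.54 ± 0.26, the 60S factors FTSJ3 by 2.55, LAS1L by 2.5 and DDX24 by 2.41. The exosome ring subunit EXOSC4 fell (-1.74 ± 0.22, edgeR adjusted p = 1.98e-06), as did the U3 particle protein IMP3 (-1.71), TSR3 (-0.95) and the box C/D core protein SNU13 (-0.79). Of 12 further Pol I genes 2 rose, 2 fell and 8 did not pass, so neither share exceeded that of all genes. Their median was 0.36, a smaller value than the 1.61 of the 4 Pol I genes above. The difference between the 2 lists was not tested.

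In the light pool most of the 46 genes did not pass: 3 rose, 7 fell and 36 did not pass, against 13.8% and 14.9% of all genes that rose and fell. The median was 0.01, with -0.02 for all genes. In 5 of the 46 genes every sorafenib light library was above every vehicle one and in 7 every one was below, against 16.9% and 21.9% of all genes. At least 2-fold changes passed in 1 gene that rose and 5 that fell, against 9.41% and 11.8% of all genes.

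**Figure D2:**
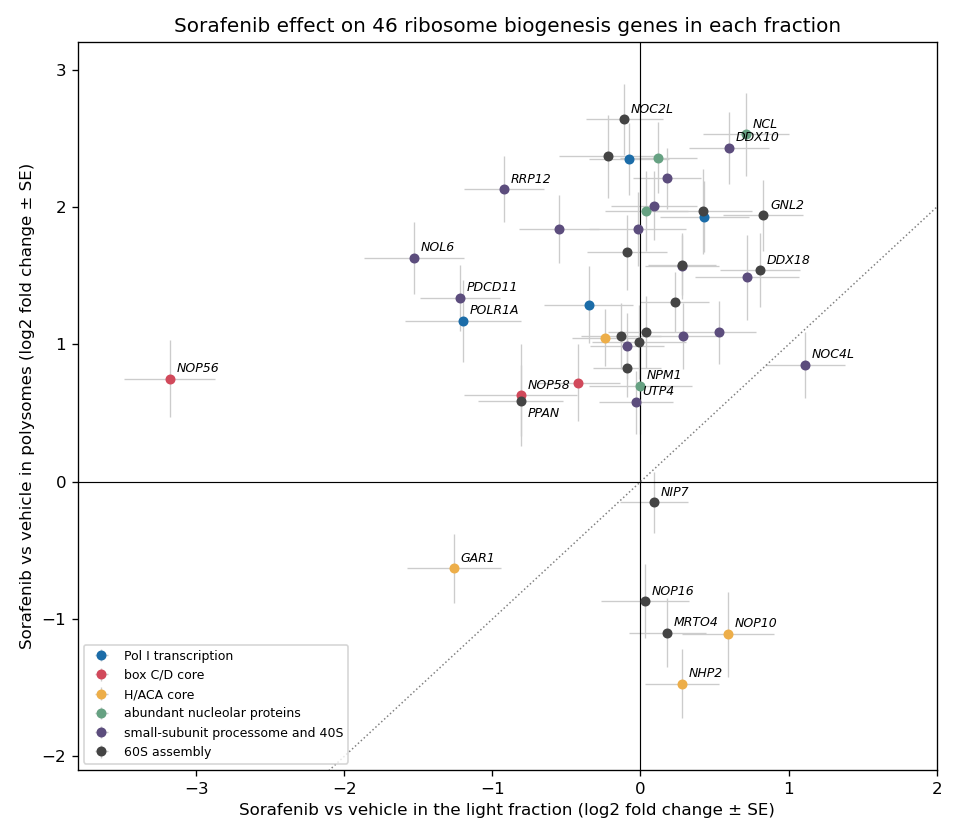
Log2 fold change ± SE with sorafenib in the light fraction (horizontal) and in polysomes (vertical) for the 46 genes, coloured by role; the dotted line marks equal change. Most points stand near 0 on the horizontal axis and above 0 on the vertical axis, NOP56 lies far to the left at -3.18, and NHP2, NOP10, MRTO4, NOP16 and GAR1 lie below 0.

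NOP56 changed most. It stood at 1990, 2630 and 2790 CPM in vehicle light libraries and at 335, 205 and 276 CPM with sorafenib, a fall of 3.18 on the log2 scale (-3.18 ± 0.31, edgeR adjusted p = 2.06e-06). The vehicle level was thus high in all 3 cultures, and the groups were far apart. NOP56 hosts snoRNAs in its introns, and the SNORD86 row had 212, 388 and 125 counts in vehicle light libraries, 3, 0 and 17 in sorafenib light libraries and 2 to 20 in polysome libraries. SNORD57, another intronic snoRNA of NOP56, had 60, 72 and 41 counts in vehicle light libraries and 5, 1 and 7 in sorafenib light libraries. The 5 snoRNA rows of NOP56 together held counts equal to 1.75% of those of the gene, and whether reads from intron-containing RNA were counted for NOP56 was not tested. The other 2 box C/D genes did not pass: NOP58 was at 128, 200 and 124 CPM with vehicle and 89.5, 51.7 and 108 CPM with sorafenib (-0.81, edgeR adjusted p = 0.122), and FBL had a value of -0.42.

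The other light-fraction falls were in genes of several roles. NOL6, a processome scaffold protein, went from 14.8, 15.6 and 13.2 CPM to 3.53, 1.78 and 6.75 CPM (-1.53, edgeR adjusted p = 0.00217), where the middle value rests on 1 count. PDCD11 went from 41.3, 42 and 68 CPM to 25.9, 23.2 and 17.4 CPM (-1.22), and GAR1 from 15.7, 21.5 and 11.5 CPM to 5.3, 5.35 and 8.2 CPM (-1.26). Sorafenib levels were below all vehicle levels in these 3 genes, so GAR1 fell in both fractions. POLR1A (-1.2), RRP12 (-0.92) and PPAN (-0.81) also fell, whereas POLR1A and RRP12 rose on polysomes. The light groups of POLR1A overlapped, at 20, 16.2 and 11.3 CPM with vehicle and 4.71, 16.1 and 5.79 CPM with sorafenib. Its lowest count was 8. NOC4L rose from 16.4, 15 and 15.1 CPM to 35.9, 37.5 and 29.7 CPM (1.11, edgeR adjusted p = 0.00398), GNL2 by 0.83 and DDX18 by 0.81, from 56.2, 77.6 and 78.1 CPM to 126, 112 and 132 CPM; these 3 genes rose in both fractions. The remaining 29 genes that rose on polysomes did not pass in the light fraction, among them NOC2L (-0.11), RRN3 (-0.08), NAT10 (0.18), NCL (0.71) and NOLC1 (0.12).

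Few light-fraction calls were firm. The calls of NOP56, NOL6, PDCD11, GAR1 and NOC4L passed in each of the 12 fits that left out 1 library, but GAR1 (-0.98) and NOC4L (0.95) did not pass without both shallow sorafenib light libraries. Over all settings tried, NOP56, NOL6 and PDCD11 were the 3 of the 10 calls kept in each setting that tested the gene. RRP12 was lost without vehicle light library 3 (-0.77) or sorafenib light library 1 (-0.82), and POLR1A without vehicle light library 1 (-1.04), sorafenib light library 1 (-0.96) or sorafenib light library 3 (-1.04). DDX18 was lost without any 1 of the 3 vehicle light libraries or of sorafenib light libraries 1 and 3 (0.61 to 0.83), GNL2 without vehicle light library 1 or 2 or sorafenib light library 1 or 3 (0.5 to 0.88), and PPAN without any light library other than vehicle light library 3 (-0.92 to -0.63). Rises numbered 1 without vehicle light library 1, vehicle light library 2, sorafenib light library 1 or sorafenib light library 3, and 5 without sorafenib light library 2; falls numbered 4 without sorafenib light library 1. With sorafenib light libraries 1 and 2 both left out, 2 rose and 5 fell; the lone remaining sorafenib light library then has the spread of the other groups. Scaled by library totals alone, the median of all genes moved to 0.29, and 10 of the 46 genes rose and 4 fell.

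The third comparison set the polysome pool against the light pool in vehicle cells. Of the 46 genes 7 were higher in polysomes, 17 were lower and 22 did not pass, against 18.3% and 17.6% of all genes that were higher and lower. The median was -0.51, with -0.05 for all genes. All 3 polysome libraries were above all 3 light libraries in 9 of the 46 genes and below them in 20, against 23.7% and 24.8% of all genes. Genes that were higher included NHP2 (1.44 ± 0.25), NOP16 (1.44), MRTO4 (1.25), NOP10 (1.15) and NIP7 (0.85). The NHP2, NOP16, MRTO4 and NOP10 mRNAs, which fell on polysomes with sorafenib, were thus polysome-weighted in vehicle cells. Both comparisons use the same vehicle polysome libraries, with opposite sign, so their results are not independent. The lower genes included NOP56 (-4.82 ± 0.33), NOP2 (-2.01), RRP12 (-1.51), NOL6 (-1.18), PPAN (-1.16), UTP4 (-1.04) and DDX10 (-1.01). These 12 genes kept their call in each fit that left out 1 library, whereas the other 12 calls did not, and 7 of the 24 calls were kept over all settings tried. Counts of lower genes were 9 without vehicle light library 2, vehicle light library 3 or vehicle polysome library 2. Signs between pools depend on the scaling: scaled by library totals alone, the median of all genes was 0.82, that of the 46 genes was 0.36, 16 were higher and 3 lower, and UTP4, NOL6, PPAN and DDX10 no longer passed.

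The fourth comparison made the same contrast in sorafenib cells. Of the 46 genes 26 were higher in polysomes, 1 was lower and 19 did not pass, against 17.8% and 10.2% of all genes. The median was 0.91, with 0.13 for all genes. The polysome libraries were above the light libraries without overlap in 30 of the 46 genes and below them in 1, against 27.3% and 13% of all genes. NOC2L (2.22 ± 0.27), BMS1 (2.03), UBTF and NOL6 (both 1.98), NCL (1.85) and RRP1B (1.84) had the largest values, and all 4 Pol I genes were higher. NOP56 was the gene that was lower (-0.9, edgeR adjusted p = 0.0221), and it did not pass without vehicle light library 2 (-0.78), sorafenib light library 1 (-0.69) or sorafenib light library 3 (-0.74). Over all settings tried, 11 of the 27 calls were kept. NHP2 (-0.31), NOP10 (-0.56) and MRTO4 (-0.03), all higher in polysomes of vehicle cells, did not pass. The count of lower genes was 0 without these same 3 libraries and 3 without sorafenib light library 2. Without both shallow sorafenib light libraries 18 were higher and 1 was lower, and with every library thinned to the smallest total 13 were higher and 2 lower, of 45 tested.

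Since both pools came from the same lysate, the ratio of polysome to light level was also taken within each culture. Over the 46 genes its median log2 value was -0.17, -0.6 and -0.68 in vehicle cultures 1 to 3 and 1.09, 1.08 and 0.75 in sorafenib cultures 1 to 3. Over all tested genes the medians were -0.03, -0.05 and -0.04 with vehicle and 0.2, 0.35 and 0.13 with sorafenib. The ratio was above 0 for 18, 14 and 14 of the 46 genes in the vehicle cultures and for 39, 40 and 39 in the sorafenib cultures. The share of all genes above 0 was not counted, and the place of 0 depends on the scaling. Scaled by library totals alone, the median of the fit in vehicle cells was 0.36 for the 46 genes and 0.82 for all genes. For 36 genes it was higher in every sorafenib culture than in every vehicle culture (25.6% of all genes), and for 2, NHP2 and MRTO4, it was lower in every one (14%).

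**Figure D3:**
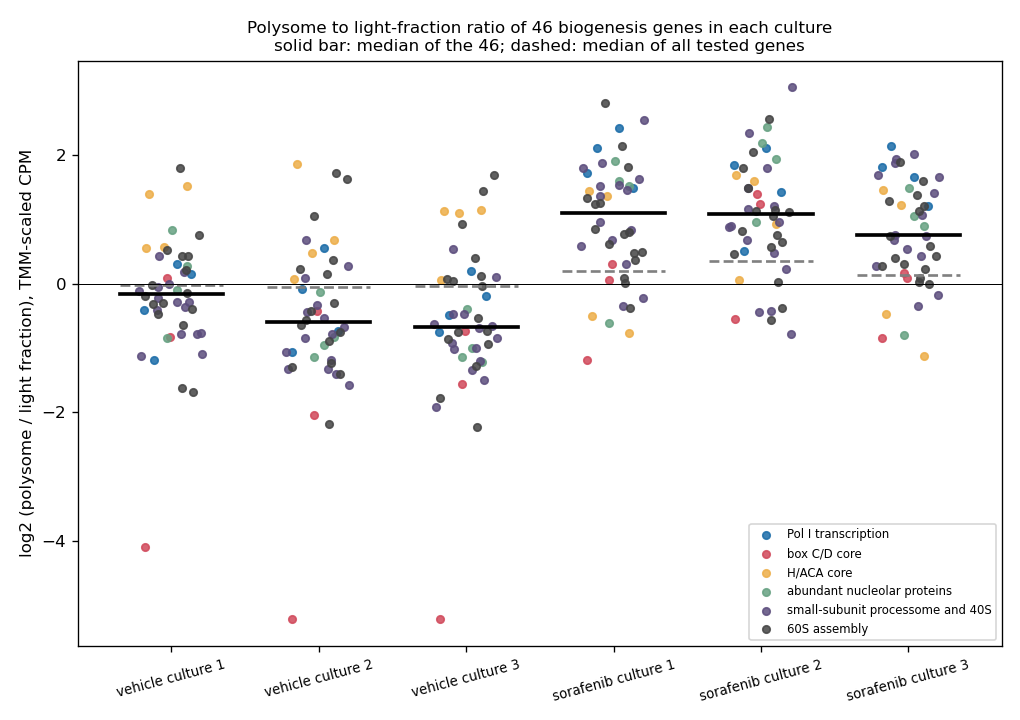
Log2 ratio of polysome to light-fraction level for each of the 46 genes in each of the 6 cultures, coloured by role, with the median of the 46 (solid bar) and of all tested genes (dashed bar). The solid bars lie below 0 in the 3 vehicle cultures and at 0.75 to 1.09 in the 3 sorafenib cultures, where the place of 0 depends on the scaling. The points near -4 and -5 are NOP56.

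The last comparison tested whether the sorafenib effect differed between the pools, as the polysome change minus the light-fraction change. It was positive and passed for 31 of the 46 genes, negative and passed for 3, and did not pass for 12, against 15.2% and 8.59% of all genes. The median was 1.29, with 0.15 for all genes. NOP56 (3.93 ± 0.41) had the largest value, made up of a polysome rise of 0.75 and a light-fraction fall of 3.18 on the log2 scale. NOL6 (3.16), RRP12 (3.05) and PDCD11 (2.56) rose on polysomes and fell in the light pool. NOC2L (2.74), NOP2 (2.59), RRN3 (2.43) and NOLC1 (2.24) rose on polysomes with no light-fraction change that passed. NHP2 (-1.75), NOP10 (-1.71) and MRTO4 (-1.28) were the negative ones. NOC4L (-0.27), BYSL (0.56), UTP4 (0.61), GAR1 (0.63) and DDX18 (0.73) did not pass, so a difference between pools was not detected for them. Over all settings tried, 15 of the 34 calls were kept. The call of MRTO4 was lost without vehicle light library 2 (-1.15) or 3 (-1.08). Scaled by library totals alone, 20 were positive and 4 negative, and after thinning every library to the smallest total, 18 and 4 of 45 tested.

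**Figure D4:**
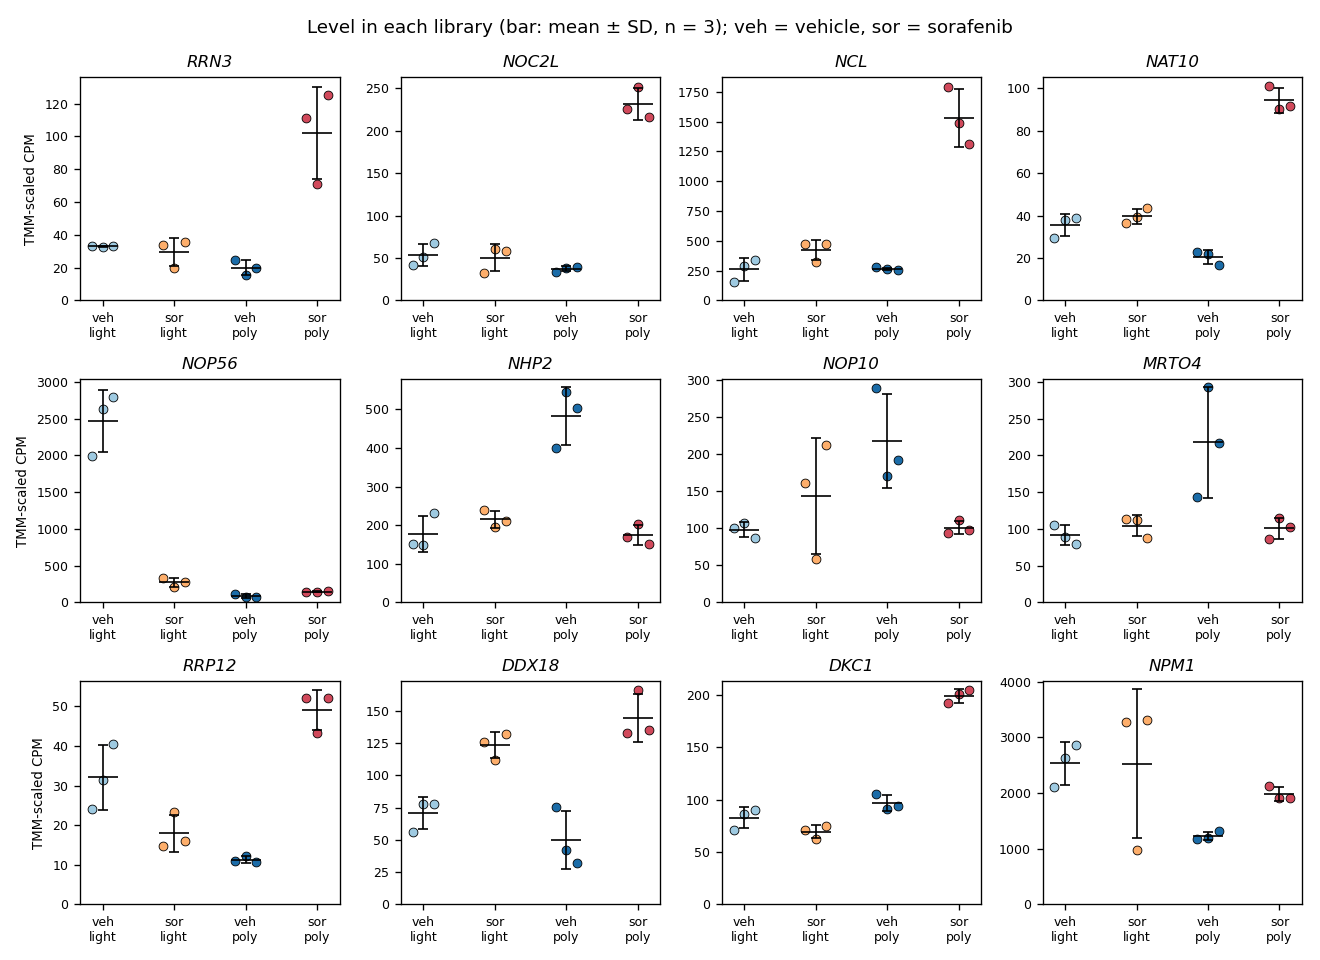
Level of 12 of the genes in each of the 12 libraries as TMM-scaled CPM on linear axes from 0, by group (vehicle light, sorafenib light, vehicle polysome, sorafenib polysome); points are libraries and bars the mean ± SD of 3. RRN3, NOC2L, NCL and NAT10 are high in sorafenib polysomes alone, NOP56 in the vehicle light pool, and NHP2 and MRTO4 in vehicle polysomes.

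The group means show the same order. NOC2L stood at 53.5 ± 13 CPM in vehicle light, 50.2 ± 16 in sorafenib light, 37.2 ± 3.06 in vehicle polysome and 231 ± 19 CPM in sorafenib polysome libraries (SD, n = 3 each). NHP2 stood at 178 ± 46.7, 215 ± 22.2, 482 ± 74.4 and 175 ± 26.4 CPM in the same order, so the vehicle polysome pool was the high group and the ranges of the other 3 overlapped. DKC1, its partner in the H/ACA particle, stood at 82.7 ± 9.96, 69.2 ± 6.19, 96.5 ± 7.22 and 199 ± 6.59 CPM, with the sorafenib polysome pool as the high group. NPM1 stood at 2540 ± 391, 2530 ± 1340, 1220 ± 71.9 and 1990 ± 125 CPM, and its wide spread in the sorafenib light pool comes from library 2 at 986 CPM against 3280 and 3320 CPM in libraries 1 and 3.

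Several of the 46 genes share sequence or overlap other genes, and the table does not say how such reads were counted. Beside RRN3, NPM1 and PPAN, BMS1 has 18 pseudogene rows with counts equal to 8.93% of its own, and NOC2L has 2 with 0.883%. RRN3, HEATR1, BYSL, GNL3 and NHP2 overlap the protein-coding genes PDXDC1, LGALS8, MED20, GLT8D1 and RMND5B in RefSeq, whose rows held counts equal to 130%, 127%, 76.8%, 32.7% and 8.12% of theirs, and NOP14 overlaps its antisense RNA NOP14-AS1, so part of their reads cannot be assigned without knowing the strand.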

How the data were processed

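The authors deposited 1 table of gene counts for the 12 libraries, with GRCh38.p12 as the genome build in the submitters' processing notes. The aligner, the counter, the annotation and the strand setting were not given in the sources used here. Counts were tested with edgeR 4.0.16 (quasi-likelihood, robust; R 4.3.3) over all 4 groups in 1 fit, after a low-count filter that left 14955 of 57353 rows, with TMM scaling that kept full library totals. Untested rows held at most 4.54% of the counts of any library. Benjamini-Hochberg adjustment ran over all tested genes, with calls at 0.05. DESeq2 1.42.0, other scalings, filters, thinning and leaving out libraries were alternatives; library sizes over filtered genes were added after seeing the data. Culture ratios used a prior count of 2.

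The 46 members, the other gene lists and the rule for named genes were chosen with earlier results of these data known. All 46 members could be named; values in every library were given for up to 4 members per role with the smallest p in the polysome comparison and for members whose sign opposed the median, and of the 122 other genes the 4 rises and 4 falls with the smallest p were named. The labels tie both fractions to 1 culture but do not say that cultures were grown independently, so p-values measure the spread between these samples, which may be technical. Vehicle and sorafenib samples shared only a number. By the labels, sorafenib polysome library 3 carries the sample index of vehicle light library 1, whereas each other library carries the index of its own number; sequencing runs were not used here, and without that library 34 of the 46 genes rose on polysomes and 5 fell.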

Additional observations from a re-analysis of the deposited data

Results flagged for a closer look

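The sorafenib effect differed between the polysome and the light pool in 34 of the 46 genes, by the edgeR interaction test with adjusted p under 0.05 (15.2% of all genes were positive and 8.59% negative). The values are the polysome log2 fold change minus that of the light pool, and their causes were not tested. Among Pol I genes the difference was 2.43 for RRN3, 2.37 for POLR1A, 1.5 for POLR1B and 1.64 for UBTF; POLR1B turned to -0.34 after thinning to the smallest total, where POLR1A did not pass (2.27), and UBTF did not pass without both shallow sorafenib light libraries (1.34). In the box C/D core the difference was 3.93 for NOP56 and 1.14 for FBL. In the H/ACA core the difference was -1.75 for NHP2, -1.71 for NOP10 and 1.29 for DKC1. For the abundant nucleolar proteins the difference was 1.82 for NCL, 2.24 for NOLC1 and 1.94 for DDX21. For the small-subunit processome the difference was 1.29 for NOP14, 1.86 for UTP20, 1.08 for WDR43, 3.16 for NOL6, 2.38 for BMS1, 1.92 for HEATR1, 2.56 for PDCD11, 1.83 for DDX10, 3.05 for RRP12 and 2.03 for NAT10. For 60S assembly the difference was 2.74 for NOC2L, 1.55 for NOC3L, 2.59 for NOP2, 0.92 for RRP1, 1.19 for RRS1, 1.08 for WDR12, 1.3 for BOP1, 1.76 for PES1, 1.4 for PPAN, 1.04 for GNL3, 1.12 for GNL2 and -1.28 for MRTO4. NOP10, NHP2 and MRTO4 were the 3 with a negative value, and 24 of the 34 calls passed in each of the 12 fits that left out 1 library. Over all settings tried 15 of the 34 were kept, and the calls of POLR1A, POLR1B, UBTF, NHP2, NOP2, HEATR1 and BOP1 were among those lost in at least 1.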

How the results depend on the processing

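Counts are of the 46 genes that passed as higher and lower. Leaving out 1 library at a time gave 33 to 38 higher and 4 to 5 lower in the polysome comparison, 1 to 5 and 4 to 8 in the light comparison, 5 to 7 and 9 to 19 between pools of vehicle cells, 23 to 29 and 0 to 3 between pools of sorafenib cells, and 22 to 33 and 2 to 4 for the difference of the sorafenib effect. With library totals only, the light comparison gave 10 and 4, vehicle pools 16 and 3, sorafenib pools 0 lower, and the difference 20 higher; the vehicle-pool median turned to 0.36, and RRN3 (0.17), NOLC1 (0.19), HEATR1 (0.15), PDCD11 (0.12), NAT10 (0.07), GNL3 (0.08) and GNL2 (0.03) turned sign. All-gene medians moved there to 0.82 in vehicle pools, 0.61 in sorafenib pools, 0.29 in the light comparison and -0.25 for the difference. Without the low-count filter, 3 were lower in the polysome comparison, 0 higher in the light comparison, 7 lower in vehicle pools, 0 lower in sorafenib pools and 1 lower for the difference, and NIP7 turned to 0.02 in polysomes. A minimum count of 50 gave 3 lower in sorafenib pools. Thinned to the smallest total, 4 were higher in vehicle pools, 13 higher and 2 lower in sorafenib pools and 18 higher for the difference, and GAR1 turned to -0.15 in vehicle pools and POLR1B to -0.34 for the difference. The cause of these changes was not tested. The main fit had no term for culture. The replicate block added the replicate number to the polysome and light comparisons, and the culture to the comparisons between pools and the difference. With the replicate number the counts were 36 and 5 in polysomes and 3 and 7 in the light comparison. With the culture they were 7 and 18 in vehicle pools, 26 and 1 in sorafenib pools and 32 and 3 for the difference. The replicate block thus moved no count by over 1.5 times. DESeq2 gave 36 and 5 in polysomes and 4 and 7 in the light comparison. The shallow sorafenib light libraries limit every light-pool value.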
